A study of Oryza sativa Indica Group with 12 samples.

Results

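The roots of the tolerant rice cultivar EPAGRI 108 and of the susceptible cultivar BR-IRGA 409 were compared as they stood under control Fe, before any excess of the metal. This comparison takes 6 of the 12 arrays of the series, 3 of EPAGRI 108 control plants and 3 of BR-IRGA 409 control plants, and 57258 of the 57381 probe sets, since 123 control probe sets of the array were left out. Both cultivars are Oryza sativa ssp. indica grown in southern Brazil. All plants were raised in nutrient solution and, 20 days after germination, were kept in hydroponics for 3 days at 6.5 mg/L Fe (control) or at 500 mg/L Fe (excess), with FeSO4 as the Fe source at both levels and Na2SO4 in the control solution to even out sulfur. Total RNA of whole roots was hybridised to the Affymetrix GeneChip Rice Genome Array, and the replicates are labelled as biological without stating how many plants each one pooled, so p-values measure the spread between these arrays.

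Grasses take up Fe mainly as a complex with phytosiderophores, small chelators that are made from methionine through nicotianamine, released into the soil by the root and carried back into the cell by a transporter of the YSL family. Rice in addition takes up ferrous Fe directly, which is abundant in flooded soil. When Fe is scarce, basic helix-loop-helix factors and small IRON MAN peptides switch this machinery on, and when Fe is plentiful the surplus is kept in ferritin or moved into the vacuole.

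On all 12 arrays the median was 5.16 to 5.22 on the log2 scale. The level of no signal was taken from the brightest tag control probe set of each array, which matches no rice transcript. It lay at 4.51 to 5.01, and 52.9% to 59.6% of the probe sets of an array were above it. Among the control arrays 1 stood apart. EPAGRI 108 control replicate 1 had a correlation of 0.997 with EPAGRI 108 excess Fe replicate 1, against 0.986 and 0.987 with control replicates 2 and 3, which had 0.996 with each other. The 627 probe sets that excess Fe raised in BR-IRGA 409 had a median of 7.51 on this array, 6.13 and 6.15 on the other EPAGRI 108 control arrays and 5.96 to 6.11 on the BR-IRGA 409 control arrays. Where leaving out this array ended a call of a named gene or moved its value by over 1.5 times, the value without it is given. EPAGRI 108 excess Fe replicate 1 lay between the Fe levels for falling probe sets. The 143 that excess Fe lowered in BR-IRGA 409 had a median of 7.565 on it. They had 6.456 and 6.378 on the other EPAGRI 108 excess Fe arrays and 7.906 to 8.335 on the EPAGRI 108 control arrays. Replicate 1 of excess Fe enters the values under excess Fe and the spread shared by all 12 arrays. Arrays numbered 1 also read the 5′ end of an actin transcript lower in every group (9.68 to 10.5, against 11.4 to 12.1 on the others), while its 3′ end lay at 12.5 to 13.1 on all arrays. Without all 4 arrays numbered 1, 329 probe sets were called higher and 315 lower in EPAGRI 108, against 346 and 292 with them, and of the named genes Cht11 alone lost its call.

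The groups were taken from the labels of the arrays, and one doubt about them bears on all that follows. The study's lists of genes that respond to excess Fe in the tolerant cultivar run in the opposite direction to these labels, while its lists for the susceptible cultivar run in the same direction. The paper reports that RT-qPCR bore out its arrays in most cases, but that some oppositely regulated genes lacked the fall. It proposes that low control expression might be the reason. The sources used here do not settle which arrays of the tolerant cultivar had control Fe. By the labels, the 627 probe sets that excess Fe raised in BR-IRGA 409 had medians of 7.89 to 8.38 on the EPAGRI 108 excess Fe arrays and 8.50 to 8.71 on the BR-IRGA 409 excess Fe arrays. The comparison under control Fe and its change with the Fe level were therefore also computed with the EPAGRI 108 control and excess Fe arrays exchanged.

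Root markers differed little between the cultivars. The silicon transporters LSI1 and LSI2 and the phosphate exporter PHO1;2 differed by 0.06, 0.05 and -0.03 on the log2 scale, and their summed linear value was 21336 to 27355 in EPAGRI 108 and 21043 to 26028 in BR-IRGA 409. Of 9 leaf markers, 2 were called lower in EPAGRI 108 and 8 lay below zero, with a median of -0.92. Their summed linear value was 2260 to 3790 in EPAGRI 108 and 5146 to 9774 in BR-IRGA 409, and the genes behind it are given with the other groups.

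Of the 57258 probe sets, 638 (1.11%) were called at an adjusted p under 0.05 and at least 3-fold. EPAGRI 108 was higher in 346 of them (0.604%) and lower in 292 (0.510%), and the median difference over all probe sets was -0.006. At the same adjusted p and any fold, 937 were higher and 925 lower. The 3 arrays of one cultivar did not overlap with those of the other in any called probe set, which is also true of 14.7% of all probe sets. Without EPAGRI 108 control replicate 1, 312 of the 346 and 279 of the 292 calls were still made. With the 3 arrays labelled EPAGRI 108 excess Fe in place of the control arrays, 328 and 269 were, the sign of no call turned, and 774 probe sets were higher in all. In bulk roots, fewer cells of a type and less RNA per cell cannot be told apart.

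**Figure D1:**
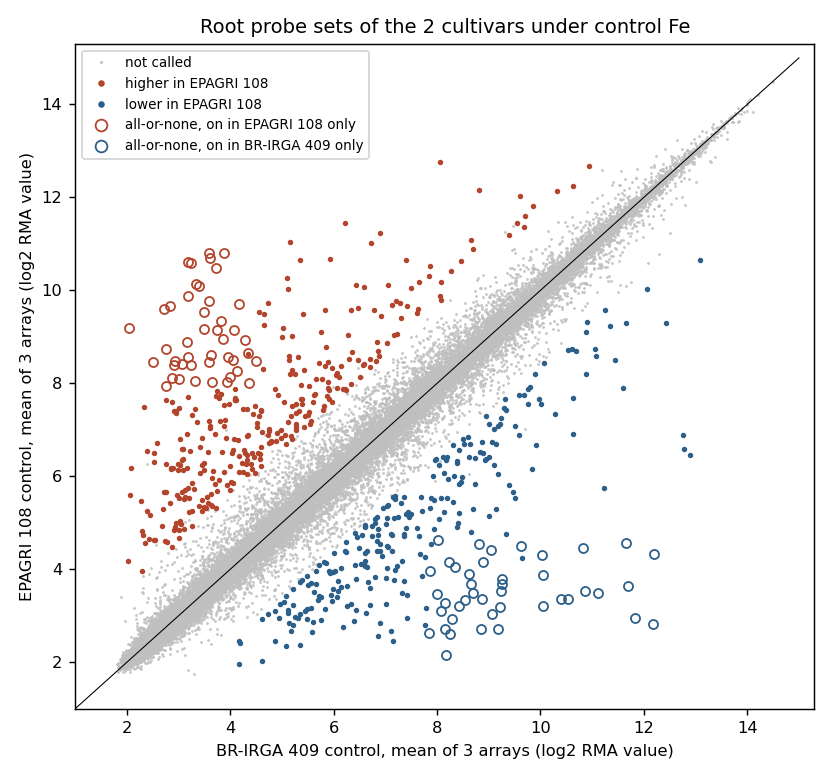
Mean log2 RMA value of each probe set on the 3 EPAGRI 108 control arrays (vertical axis) against the 3 BR-IRGA 409 control arrays (horizontal axis). Grey points were not called, filled coloured points are the 346 higher and 292 lower calls, and open circles mark the 86 all-or-none gaps, which lie apart at the left and lower right edges.

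Most of the called differences had one cultivar near or under the level of no signal. Among the higher calls, BR-IRGA 409 was at or under that level on all 3 arrays in 201, and among the lower calls EPAGRI 108 was in 148. Both cultivars were measured above it on every array in 114 higher and 109 lower calls. Of those 114, the difference was 3 to 4-fold in 44, 4 to 8-fold in 49, 8 to 16-fold in 12 and larger in 9. Of the 109 it was so in 41, 50, 14 and 4. The annotation gave 1 gene for 312 of the calls and none for 319. A name or a description was there for 87 of the calls, in some only as an expressed, hypothetical or unknown protein.

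In the list of 32 Fe genes, 10 were lower in EPAGRI 108, 3 were higher and 19 were not called, with a median of -0.44. Over all 17905 genes with 1 probe set each, 112 were lower (0.626%) and 126 higher (0.704%), with a median of -0.01. With the EPAGRI 108 arrays exchanged the same 13 Fe genes were called, and NAS3, FER1 and FER2 (higher) and IRT1 and YSL16 (lower) were called as well. The list was built with the study's results on these arrays known, so its counts are not independent evidence. The lower members belonged to Fe uptake, chelator synthesis and export, distribution and the control of the Fe deficiency response. The higher members belonged to vacuolar storage.

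YSL15, the root transporter that takes up the Fe(III)-phytosiderophore complex, was at 6.57, 6.48 and 6.35 in EPAGRI 108 and at 12.99, 12.78 and 12.89 in BR-IRGA 409. The cultivars were far apart and no EPAGRI 108 array came near a BR-IRGA 409 array. The difference was -6.42 ± 0.27 (log2, SE; 85.8-fold lower, adjusted p = 1.14e-08), the largest measured on both sides in the list. NRAMP1, a metal transporter of the root plasma membrane, was at 6.13, 6.16 and 6.20 in EPAGRI 108 and at 9.77, 9.92 and 9.84 in BR-IRGA 409. It was 12.8-fold lower, with the tight replicates giving an adjusted p of 5.42e-09.

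The other uptake genes differed less. IRT1, the ferrous Fe transporter, was at 9.93, 10.26 and 10.09 in EPAGRI 108 and at 11.82, 11.62 and 11.55 in BR-IRGA 409. The control arrays of the cultivars did not overlap (SD 0.16 and 0.14), but the difference of -1.57 ± 0.60 did not pass the test (adjusted p = 0.315). That SE takes in the spread of all 12 arrays, and the EPAGRI 108 excess Fe arrays were at 9.24, 6.46 and 5.99 (SD 1.75). The failed test therefore does not measure the spread of the control arrays alone. At 2.97-fold, IRT1 was also under the 3-fold limit. With the EPAGRI 108 arrays exchanged the difference was -4.43 and was called (adjusted p = 0.000428). By RT-qPCR, which is on another scale than these values, the paper describes the absolute level of IRT1 in EPAGRI 108 as very low. IRT2, its close relative, differed by 0.43 (adjusted p = 0.422), and NRAMP5, the Mn and Cd uptake transporter, by -0.36 (adjusted p = 0.316). By the labels, 2 of the 5 uptake genes were called, both lower.

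Nicotianamine and phytosiderophore synthesis had the lowest median of the groups with more than 1 gene, -5.67 over 4 genes, 3 of them called lower. NAS2, a nicotianamine synthase, was at 6.59, 6.60 and 6.54 in EPAGRI 108 and at 12.49, 12.82 and 13.02 in BR-IRGA 409, a difference of -6.20 ± 0.18 (adjusted p = 3.26e-10). NAS1, its neighbour on the chromosome and a near-identical copy, was at 7.24, 6.68 and 6.76 in EPAGRI 108 and at 12.55, 12.85 and 12.88 in BR-IRGA 409. The difference was -5.86 ± 0.46 (adjusted p = 3.62e-06), and the array may not separate the copies fully. NAAT1, the aminotransferase that turns nicotianamine towards deoxymugineic acid, was at 6.08, 5.53 and 5.66 in EPAGRI 108 and at 11.03, 11.30 and 11.35 in BR-IRGA 409. It was 44.4-fold lower (adjusted p = 4.51e-09). NAS3 went the other way and was 2.44-fold higher (9.25, 9.28 and 8.86 in EPAGRI 108, against 7.52, 8.26 and 7.75 in BR-IRGA 409), which passed the test (adjusted p = 0.00369) but not the 3-fold limit.

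TOM1, which exports deoxymugineic acid into the rhizosphere, was detected in BR-IRGA 409 only. Its values were 2.64, 2.14 and 2.91 in EPAGRI 108, all under the level of no signal, and 6.94, 6.98 and 6.64 in BR-IRGA 409. It was at least 4.10-fold lower in EPAGRI 108 (adjusted p = 2.51e-08). Folds marked "at least" set each array of the dim cultivar to that level.

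In distribution, YSL2 was the called gene of 8, and 2 others passed the test under 3-fold. YSL2, which carries Fe and Mn complexed with nicotianamine in the phloem, was at 5.20, 5.14 and 5.12 in EPAGRI 108 and at 8.92, 9.0 and 9.10 in BR-IRGA 409. The EPAGRI 108 values were just above the level of no signal, and the difference was -3.86 ± 0.15 (adjusted p = 4.11e-09). YSL16, a transporter of metal-nicotianamine complexes, was 2.62-fold lower (adjusted p = 8.32e-05) and YSL6, a transporter of the same family, 1.43-fold lower (adjusted p = 0.0309). The remaining YSL genes measured (YSL5, YSL9, YSL12, YSL13 and YSL14) lay between -0.56 and 0.45, none with an adjusted p under 0.05.

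Of 4 genes in regulation, 3 were lower, with a median of -2.46. IMA1, a rice IRON MAN peptide that promotes the Fe deficiency response, was at 4.32, 4.33 and 4.27 in EPAGRI 108, under the level of no signal, and at 9.82, 9.95 and 10.31 in BR-IRGA 409. It was at least 37.1-fold lower (adjusted p = 2.4e-10). IRO3 is a basic helix-loop-helix factor that is induced by Fe deficiency and represses Fe deficiency genes. It was at 6.86, 7.17 and 7.03 in EPAGRI 108 and at 8.84, 9.26 and 9.19 in BR-IRGA 409. The difference was -2.08 ± 0.15 (adjusted p = 1.51e-06). MIR, a mitochondrial protein whose transcript responds to Fe, had 2.89, 2.92 and 2.94 in EPAGRI 108 and 5.21, 5.85 and 6.19 in BR-IRGA 409 and was at least 1.91-fold lower (adjusted p = 1.29e-06). IDEF1, a transcription factor that acts upstream in this response, differed by 0.12 (adjusted p = 0.906).

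None of the 4 genes of the methionine cycle, which supplies the precursor of nicotianamine, was called by limma, and 2 had an unadjusted p under 0.05 (1 by the methods' t-test). MTK1, a methylthioribose kinase of that cycle, differed by -0.70 (adjusted p = 0.00522), and SAMS, a methionine adenosyltransferase, differed by 0.02 (adjusted p = 0.997). SAMS2 depended on the probe set. The brighter one differed by -0.24 (adjusted p = 0.793), while a second was at the level of no signal in EPAGRI 108 and at least 3.62-fold lower there (adjusted p = 1.29e-05).

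Storage genes were higher in EPAGRI 108, 3 of 6 past the threshold and 2 more with an adjusted p under 0.05. By the methods' t-test with adjusted p, none of these 3 was called on the probe set that stands for it. VIT2, a vacuolar Fe transporter, was at 12.57, 12.09 and 11.85 in EPAGRI 108 and at 9.37, 8.62 and 8.48 in BR-IRGA 409, a difference of 3.35 ± 0.23 (adjusted p = 1.24e-06). A second probe set of VIT2 gave 3.48. LOC_Os04g45520, an integral membrane protein of the same family, was at 12.15, 11.01 and 10.51 in EPAGRI 108 and at 6.43, 6.85 and 7.41 in BR-IRGA 409. EPAGRI 108 replicate 1 was the highest, and the difference was 4.33 ± 0.35 with it and 3.86 without it. LOC_Os04g59020, a further member of that family, was at 9.73, 9.88 and 9.42 in EPAGRI 108 and at 6.58, 7.46 and 7.37 in BR-IRGA 409, 5.82-fold higher, and 3 other probe sets of the gene were called as well (2.06 to 2.56 on the log2 scale). The ferritins FER1 and FER2, near-identical copies that the probes may not separate, were higher by 1.05 (adjusted p = 0.00136) and 1.07 (adjusted p = 0.00247), under the 3-fold limit. VIT1 differed by -0.24 (adjusted p = 0.872).

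**Figure D2:**
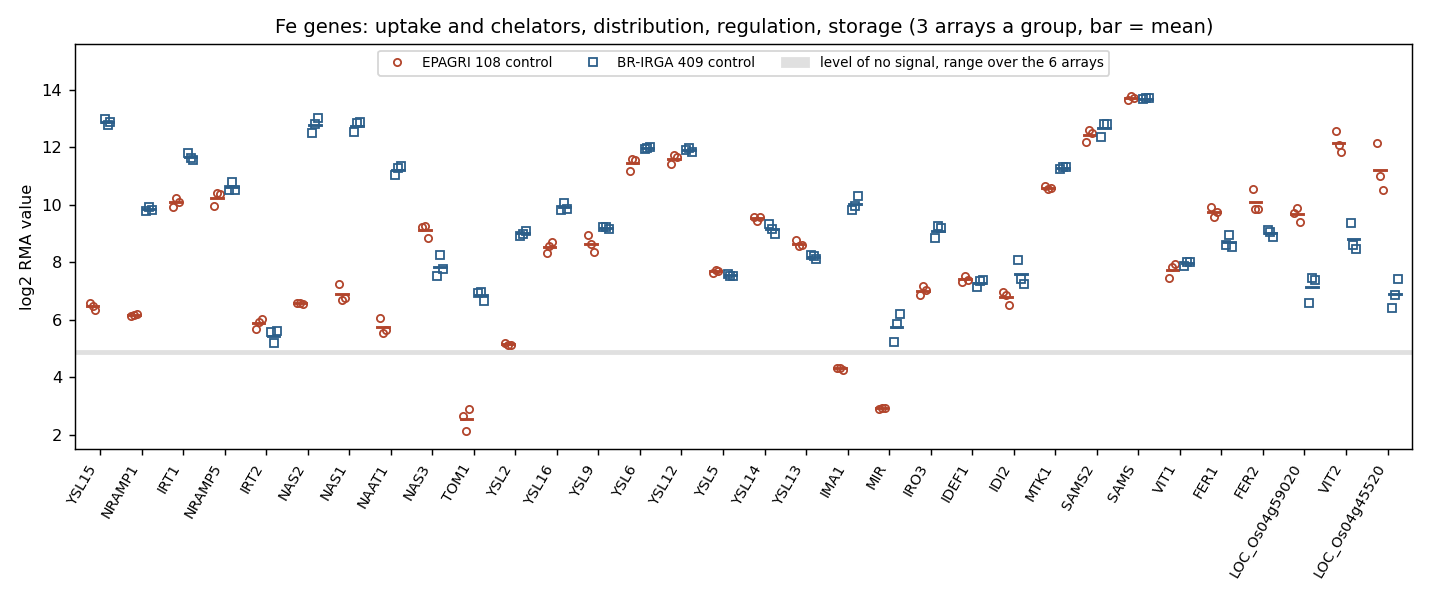
Log2 RMA value of 32 Fe genes on each of the 3 EPAGRI 108 control arrays (circles) and the 3 BR-IRGA 409 control arrays (squares), ordered by role from uptake at the left to storage at the right, with the group mean as a bar. The grey band is the level of no signal; TOM1, IMA1 and MIR lie under it in EPAGRI 108, and YSL15 has the widest gap, 6.42 on the log2 scale.

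Outside Fe transport, few families had more than 1 called gene. The named genes were sorted by their symbols into 33 families with 914 genes, of which 6 were called higher and 10 lower. Over all genes with 1 probe set each, 1.33% were called. No gene was called in 22 of the families (606 genes), where 72 genes had an unadjusted limma p under 0.05 and 61 did by the methods' t-test. The same counts over all genes are not given here, so these 2 counts have no background to be read against. These 22 families include 29 expansins, 29 cellulose synthases and like proteins, 29 cytochromes P450, 59 auxin genes, 35 jasmonate genes and 77 calcium sensors and their kinases. They also include 25 aquaporins, 22 potassium transporters, 15 antioxidant enzymes, 25 ribosomal proteins and 46 genes of the cell cycle and replication. Metal transporters had 1 of 45 higher (VIT2) and 2 lower (NRAMP1 and YSL15), all of them Fe genes. These families were matched by symbol, so genes that the annotation leaves without a symbol are in none of them.

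Light-harvesting and photosynthesis genes were the family with the lowest median after the lectins, -1.10 over 8 genes, 2 of them called lower. CAB2R, a chlorophyll a-b binding protein, was at 9.27, 10.75 and 10.07 in EPAGRI 108 and at 11.45, 12.16 and 12.59 in BR-IRGA 409, a difference of -2.04 ± 0.35 (adjusted p = 0.00416). RCABP89, another light-harvesting protein, was at 7.16, 7.83 and 7.43 in EPAGRI 108 and at 9.05, 9.22 and 9.61 in BR-IRGA 409, a difference of -1.82 ± 0.19 (adjusted p = 7.4e-05). In both genes the groups did not overlap and the lowest array of each cultivar was its replicate 1. Both are among the 9 leaf markers, whose summed level was 2260 to 3790 in EPAGRI 108 and 5146 to 9774 in BR-IRGA 409, and the part of leaf or shoot tissue in the result was not tested.

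Both lectins of the family list were lower in EPAGRI 108. salT, a mannose-binding lectin known for its induction by salt, was at 9.86, 9.08 and 8.98 in EPAGRI 108 and at 12.27, 12.41 and 12.63 in BR-IRGA 409 on one probe set, a difference of -3.13 ± 0.20 (adjusted p = 4.66e-07). The probes of this set may also match other transcripts. On a second, brighter probe set the difference was -2.43 ± 0.15 (adjusted p = 4.54e-07). The gene named Agglutinin was at 5.38, 4.27 and 3.70 in EPAGRI 108 and at 7.05, 6.18 and 6.24 in BR-IRGA 409, a difference of -2.04 ± 0.41 (adjusted p = 0.0127). This call was lost without EPAGRI 108 replicate 2 (adjusted p = 0.0573), without EPAGRI 108 replicate 3 (0.0602), without BR-IRGA 409 replicate 1 (0.0594), with the 6 control arrays alone (0.0505) and with the EPAGRI 108 arrays exchanged (0.0639).

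Chitinases and xylanase inhibitors, proteins of the defence against fungi, had 2 of 14 genes higher in EPAGRI 108, and both rested in part on the array that stood apart. RIXI, a xylanase inhibitor, was at 9.22, 6.09 and 5.95 in EPAGRI 108 and at 3.45, 4.09 and 3.25 in BR-IRGA 409, at least 4.58-fold higher (adjusted p = 0.00715). Without EPAGRI 108 replicate 1 it was at least 2.18-fold higher, and the fitted difference was 2.42 (adjusted p = 3e-05), against 3.49 with it. The call was lost when the 6 control arrays were fitted alone (adjusted p = 0.0785) and when 16 was added to the linear values (adjusted p = 0.0757). Cht11, a chitinase, was at 8.99, 7.44 and 7.28 in EPAGRI 108 and at 6.33, 5.81 and 6.03 in BR-IRGA 409, a difference of 1.85 ± 0.35 (adjusted p = 0.00924). Without EPAGRI 108 replicate 1 it was 1.31, under 3-fold, and without BR-IRGA 409 replicate 2 the adjusted p was 0.0541. With the 6 control arrays fitted alone it was 0.0752. Over the whole comparison, EPAGRI 108 replicate 1 exceeded both other EPAGRI 108 control arrays by at least 1 on the log2 scale in 41 of the 346 higher calls.

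The largest higher difference measured on both sides among named genes was that of OsCASPL1D1, a Casparian strip domain-like membrane protein. It was at 11.14, 11.63 and 11.57 in EPAGRI 108 and at 5.64, 6.58 and 6.45 in BR-IRGA 409, a difference of 5.22 ± 0.27 (adjusted p = 8.15e-08), and the other 21 genes of its family were not called. The gene named pinA was at 13.19, 12.49 and 12.60 in EPAGRI 108 and at 8.17, 8.17 and 7.84 in BR-IRGA 409, 26.1-fold higher (adjusted p = 2.22e-07). LOC_Os06g39120, an expressed protein without a known role, was 19.7-fold higher (adjusted p = 2.35e-06).

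Other higher genes differed by less. LOC_Os04g53860, annotated as a leucoanthocyanidin reductase, was at 10.27, 9.40 and 9.04 in EPAGRI 108 and at 6.49, 6.28 and 6.21 in BR-IRGA 409 (3.24 ± 0.26, adjusted p = 5.63e-06). LOC_Os03g03034, annotated as a flavonol synthase or flavanone hydroxylase, was higher by 3.15 (adjusted p = 7.95e-05), with EPAGRI 108 replicate 1 at 10.63 above replicates 2 and 3 at 9.23 and 9.01. GSTF1, a glutathione S-transferase, was at 7.49, 7.41 and 7.22 in EPAGRI 108 and at 5.65, 4.99 and 5.17 in BR-IRGA 409, 4.30-fold higher (adjusted p = 2.78e-05). It was the called gene of 6 glutathione S-transferases. OsPP2C16, a protein phosphatase 2C, was 4.39-fold higher (adjusted p = 0.000682), the called gene of 55.

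Among genes named by the study's annotation, LOC_Os07g34710, the class III peroxidase OsPrx104, was at 9.28, 9.78 and 9.69 in EPAGRI 108 and at 6.68, 6.91 and 6.76 in BR-IRGA 409, 6.98-fold higher (adjusted p = 6.51e-06). LOC_Os01g58960, a cytochrome P450, was 6.61-fold higher (adjusted p = 9.81e-05), and LOC_Os12g29400, described as responsive to abscisic acid, 5.55-fold higher (adjusted p = 1.45e-05). The probes read for OsPrx104 and for LOC_Os12g29400 may also match other transcripts. The peroxidase OsPrx12 (LOC_Os01g22230) went the other way, with 8.43, 8.62 and 8.73 in EPAGRI 108 and 10.66, 11.28 and 11.30 in BR-IRGA 409 (-2.48 ± 0.16, adjusted p = 4.56e-07).

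Transporters, a kinase and an enzyme of sugar metabolism were among the lower genes. LOC_Os01g65110, described as a proton-dependent oligopeptide transporter, was at 4.83, 4.96 and 4.96 in EPAGRI 108, just above the level of no signal, and at 7.64, 8.50 and 9.02 in BR-IRGA 409 (-3.47 ± 0.25, adjusted p = 1.59e-06). LOC_Os11g05390, described as a tetracycline transporter-like protein, was 9.43-fold lower (adjusted p = 3.81e-06). HXK4, a hexokinase, was at 5.34, 5.46 and 5.70 in EPAGRI 108 and at 7.92, 7.83 and 8.08 in BR-IRGA 409, 5.44-fold lower (adjusted p = 7.92e-07). LOC_Os03g32490, an expressed protein, was 7.29-fold lower (adjusted p = 2.65e-07).

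The receptor-like kinase LOC_Os01g03370 had 4.59, 3.04 and 3.0 in EPAGRI 108 and 10.78, 10.99 and 10.82 in BR-IRGA 409, at least 66.2-fold lower (adjusted p = 3.04e-08). All EPAGRI 108 arrays were under the level of no signal. MADS47, a MADS-box factor, was 3.65-fold lower (7.42, 7.0 and 6.98 in EPAGRI 108, against 8.88, 9.04 and 9.10 in BR-IRGA 409, adjusted p = 4.44e-06), the called gene of 31 MADS-box factors. CLPB1, the chaperone also known as HSP101, was under the level of no signal in EPAGRI 108 (4.34, 4.29 and 4.48, against 6.22, 6.17 and 6.33 in BR-IRGA 409) and at least 2.69-fold lower (adjusted p = 2.92e-06). The beta-glucosidase BGLU26 was near that level in both cultivars, with 3.49, 3.35 and 2.94 in EPAGRI 108 and 5.17, 4.83 and 4.86 in BR-IRGA 409, at least 1.10-fold lower (adjusted p = 7.4e-05), and its call was lost without EPAGRI 108 replicate 3.

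**Figure D3:**
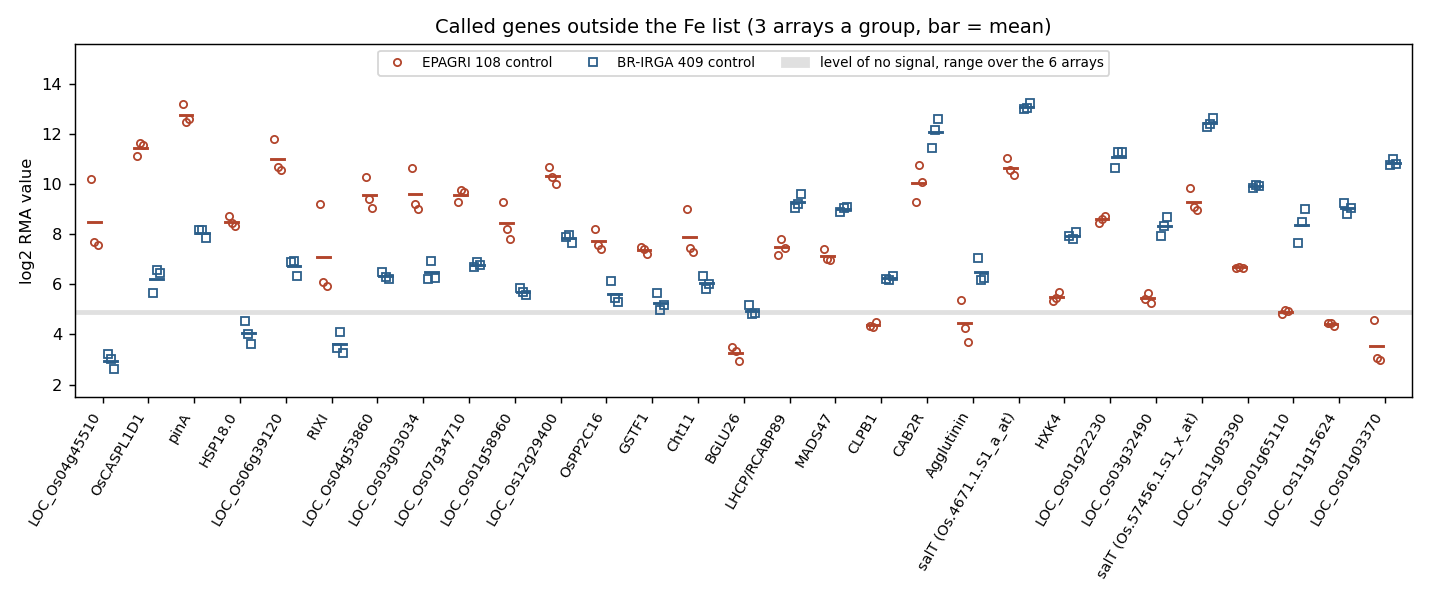
Log2 RMA value of called genes outside the Fe list on each of the 3 EPAGRI 108 control arrays (circles) and the 3 BR-IRGA 409 control arrays (squares), ordered from the largest higher to the largest lower difference, with the group mean as a bar. The grey band is the level of no signal; in LOC_Os04g45510, RIXI and Cht11 one EPAGRI 108 array, replicate 1, lies well above the other circles.

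A few more named genes were chosen after their values were seen. LOC_Os08g24200, an expressed protein, was at 11.43, 10.94 and 10.76 in EPAGRI 108 and at 5.38, 5.56 and 4.51 in BR-IRGA 409 (5.89 ± 0.32, adjusted p = 1.16e-07). Pikm2, a rice blast resistance protein, was at 8.30, 7.07 and 6.87 in EPAGRI 108 and under the level of no signal in BR-IRGA 409 (2.92, 2.84 and 3.0), at least 5.75-fold higher (adjusted p = 9.91e-07), and its neighbour LOC4351148 was dim in BR-IRGA 409 as well, at least 9.33-fold higher in EPAGRI 108. NSHB2, a non-symbiotic haemoglobin, was at 9.47, 9.49 and 8.95 in EPAGRI 108 and at 10.72, 11.74 and 12.53 in BR-IRGA 409 (-2.36 ± 0.37, adjusted p = 0.00203). LPR4, a multicopper oxidase, differed by -1.65 (adjusted p = 0.0366), the arginine decarboxylase ADC2 by -1.87 (adjusted p = 0.0175) and the cation-chloride cotransporter KCC1 by -1.59 (adjusted p = 0.000454).

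All-or-none gaps were marked apart, because a sequence variant under the probes, a missing gene and a silent gene give the same picture on an array. A called probe set was counted as such if all 3 arrays of one cultivar were at or under the level of no signal and the other cultivar was at least 8-fold above it. This held for 86 probe sets (13.5% of the calls), 44 with signal in EPAGRI 108 only and 42 with signal in BR-IRGA 409 only. The bounds were 8.26-fold to 60.4-fold (median 15.2) for EPAGRI 108 and 8.18-fold to 166-fold (median 17.8) for BR-IRGA 409. For 17 and 15 of them the annotation gave 1 gene.

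Most of these gaps were there at both Fe levels. The dim cultivar was also at or under the level of no signal on all 3 of its excess Fe arrays in 37 of 44 and 37 of 42, and the gap was called in the same direction among the excess Fe arrays in 42 and 40. An example is LOC4325346, at 11.02, 10.70 and 10.71 in EPAGRI 108 and at 4.23, 3.60 and 3.84 in BR-IRGA 409, at least 60.4-fold higher, and at least 80.7-fold higher under excess Fe. In the other direction, LOC4349197 was at 4.41, 4.68 and 4.59 in EPAGRI 108 and at 12.10, 11.45 and 11.41 in BR-IRGA 409, at least 114-fold lower, with a difference of -6.75 under excess Fe. No role is known to the annotation for either gene.

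A few gaps were not there under excess Fe. LOC_Os04g45510, which lies next to the VIT family gene LOC_Os04g45520, was at 10.20, 7.69 and 7.59 in EPAGRI 108 and at 3.21, 3.0 and 2.61 in BR-IRGA 409, at least 12.1-fold higher (adjusted p = 2.24e-05). Without EPAGRI 108 replicate 1 it was at least 6.71-fold higher and so no longer counted as all-or-none, and the fitted difference was 4.70, against 5.55 with it. Under excess Fe its mean was 11.33 in EPAGRI 108 and 11.17 in BR-IRGA 409, so the probes read a signal in both cultivars. In IMA1 and LOC_Os11g15624, a protein of unknown role that was at least 18.8-fold lower under control Fe (adjusted p = 2.97e-10), the BR-IRGA 409 signal itself was at or under the level of no signal under excess Fe.

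Other probe sets of the same gene, here called sisters, were found for 14 genes with an all-or-none gap, in 23 pairs. The sister was called in the same direction in 8 pairs, was measured and not called in 9 and was at the level of no signal in both cultivars in 6. Counted by gene, 7 had a sister called the same way and 7 a sister measured and not called, 3 of them both. HSP18.0, a small heat shock protein, shows both kinds. Its all-or-none probe set was at 8.74, 8.44 and 8.32 in EPAGRI 108 and at 4.53, 4.02 and 3.62 in BR-IRGA 409, at least 12.2-fold higher (adjusted p = 2.39e-08), and a second was higher by 4.0, while the other was at a mean of 8.59 in EPAGRI 108 and 8.15 in BR-IRGA 409, a difference of 0.43 (adjusted p = 0.110).

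The last of these probe sets is of the kind whose probes match more than one transcript, so it may read a relative of the gene. LOC4325346, with a gap of at least 60.4-fold, had a sister of the same kind that differed by 0.70. That was in the direction of the gap and passed limma's test (adjusted p = 0.000971), but not the 3-fold limit. LOC4325919, lower by at least 9.14-fold, had sisters at 0.06 and -0.52, and the probes of the latter may also match other transcripts. LOC4344126 had a sister at 3.29 and LOC9270848 one at -3.84, in the direction of their gaps. Whether bases differ under the probes was not tested, since probe sequences and the cultivars' genomes were not used here.

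**Figure D4:**
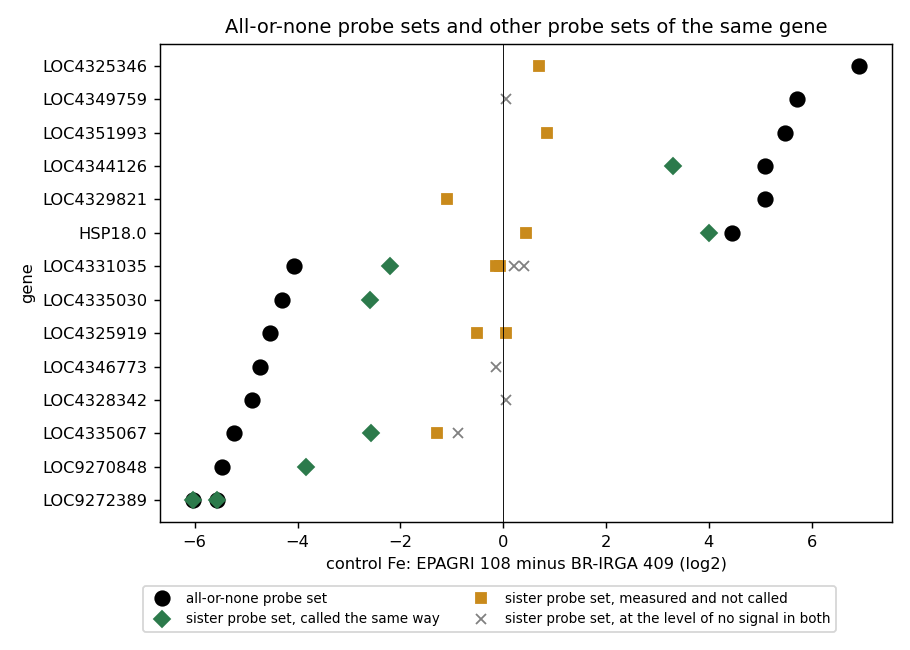
Log2 difference under control Fe, EPAGRI 108 minus BR-IRGA 409, of the all-or-none probe sets (black circles) of 14 genes, 1 gene a row, and of their sister probe sets. Diamonds are sisters called the same way, squares were measured and not called, and crosses were at the level of no signal in both cultivars; the squares lie between -1.29 and 0.86.

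Some of the called genes lay next to each other. Of the 17905 genes in the order of the annotation, 278 (1.55%) had a called probe set. A neighbour with a call was found for 61 of these 278 (21.9%) and for 473 of the others (2.68%). The 61 formed 28 runs of at most 3 genes, 21 of them in 1 direction. LOC4348040, LOC4348043 and LOC4348044 had fitted differences of 4.13, 5.16 and 3.21, and LOC9272373, LOC4326426 and LOC9270848 had fitted differences of -5.20, -4.97 and -5.46, with LOC9272373 and LOC9270848 all-or-none in favour of BR-IRGA 409. NAS2 with NAS1 and LOC_Os04g45510 with LOC_Os04g45520 were runs of Fe genes and their neighbours. Neighbouring genes can share sequence, so the members of a run are not independent.

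The 6 excess Fe arrays show which differences were there at both Fe levels. Their values enter no control difference, but all 12 arrays share the estimate of the spread. Between the cultivars under excess Fe, 338 probe sets were higher in EPAGRI 108 (0.590%) and 341 lower (0.596%). Of the control calls, 276 of 346 (79.8%) and 231 of 292 (79.1%) were called in the same direction there, and 327 and 274 had the same sign. The difference of OsCASPL1D1 was 5.06 under excess Fe, that of pinA 4.27 and that of LOC_Os06g39120 3.74, and HSP18.0 was at least 14.6-fold higher. Among the lower genes, salT was at -2.68, HXK4 at -1.97 and MADS47 at -2.07, all near their control values.

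The called Fe genes differed under control Fe and were not called under excess Fe. The control difference minus the excess Fe difference had an adjusted p under 0.05 in 107 of all probe sets (0.187%). Of the 638 calls it did in 54 (8.46%), a share that is no result of its own, since the calls were chosen on the control difference that enters it. In 43 of these 54 the excess Fe difference was not called. All 13 called Fe genes were among the 43, and 41 of the 43 lay within 1 of zero on the log2 scale under excess Fe. The 43 were chosen for having no call there, so their small differences there follow in part from that choice. Without EPAGRI 108 control replicate 1, 42 of the 43 kept an adjusted p under 0.05, and without replicate 1 of both EPAGRI 108 groups 40 did. With the replicate number within each cultivar as a block 40 did as well. With the EPAGRI 108 arrays exchanged 42 did, but 5720 of all probe sets then passed, against 107 by the labels. With the exchange this difference becomes the sum of the labelled Fe responses of both cultivars, so keeping these genes there is no separate check. The 13 Fe genes were among those kept in each of these settings, but with the arrays exchanged LOC_Os04g45520 was called under excess Fe too, lower by 1.98 in EPAGRI 108. YSL15, for example, had a mean of 5.53 in EPAGRI 108 and 5.56 in BR-IRGA 409 under excess Fe, and VIT2 had 13.04 in EPAGRI 108 and 13.41 in BR-IRGA 409. The control mean of YSL15 in EPAGRI 108, 6.47, was nearer to these levels than that in BR-IRGA 409, 12.89, and likewise VIT2 had a control mean of 12.17 in EPAGRI 108 and 8.82 in BR-IRGA 409.

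Other genes of the 43 were outside the Fe list. OsPrx104 differed by -0.01 under excess Fe, where both cultivars had a mean near its EPAGRI 108 control level (10.06 in EPAGRI 108 and 10.07 in BR-IRGA 409). OsPrx12 differed by -0.06 there (8.40 in EPAGRI 108 and 8.46 in BR-IRGA 409), and LOC_Os01g65110 by 0.25 (4.58 in EPAGRI 108 and 4.33 in BR-IRGA 409). The kinase LOC_Os01g03370 was different in kind, since it was called at both Fe levels with a smaller difference of -3.71 under excess Fe.

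**Figure D5:**
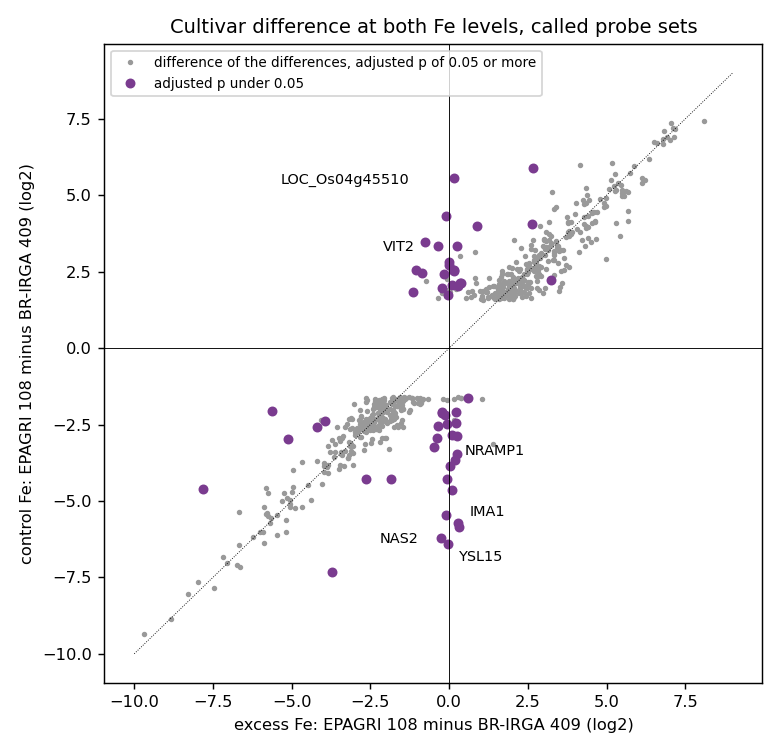
Difference between the cultivars (EPAGRI 108 minus BR-IRGA 409, log2) under control Fe (vertical axis) against the same difference under excess Fe (horizontal axis) for the 638 called probe sets. Grey points near the dotted line of equal differences make up most of the plot; large points have an adjusted p under 0.05 for the difference of the differences, and those on the vertical line at zero include VIT2 above and YSL15, NAS2, IMA1 and NRAMP1 below.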

How the data were processed

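Values were the deposited RMA values on the log2 scale, which the authors computed from Affymetrix scans. RMA subtracts background, gives all arrays one distribution, and combines the probes of a probe set, so a shift shared by most genes is removed. Images and probe values were not analysed here. Probe sets were paired with genes through the platform annotation and RefSeq symbols (22436 with 1 gene, 95 with several, 34727 with none). The study's supplementary names were used for its Fe-responsive probe sets, which it chose on these arrays. Gene classes planned as words in descriptions were replaced by 33 families of symbols, since the annotation has no descriptions.

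The model was 1 mean per group over all 12 arrays, in limma 3.58.1 (R 4.3.3), with Benjamini-Hochberg adjustment over 57258 probe sets, and calls needed an adjusted p under 0.05 and at least 3-fold. All adjusted p come from limma. On simulated data with 57258 probe sets, 95% of 4-fold and 98% of 8-fold changes were recovered, with 0 false calls. The changes were put into brighter probe sets only, and the noise was independent between arrays. Dim calls, a deviating array and deviations shared by arrays of one number were therefore not simulated. The number of arrays limits the precision. A gene was represented by its brightest probe set. Named were the 12 largest differences measured on both sides in each direction among named or described genes, up to 8 all-or-none genes per side, up to 3 called genes per family and direction, and the Fe genes. Members, lists and families were chosen with earlier results of these data known. Alternatives were the methods' t-test, 6 arrays only, 16 added to the linear values, another scaling, a filter on dim probe sets, robust variances, a block, 2-fold, the EPAGRI 108 excess Fe arrays in place of control, and leaving out each array. Leaving out replicate 1 of both EPAGRI 108 groups or of all 4 groups was added after the data were seen, as were the block and the exchange in the control minus excess Fe difference. Python 3.11.15 with pandas 2.3.3 made the tables and matplotlib 3.10.9 the plots.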

Additional observations from a re-analysis of the deposited data

Results flagged for a closer look

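The difference between the cultivars changed with the Fe level in 25 of the 62 named probe sets (adjusted p from 1.52e-07 to 0.0229). The test was limma's, of the control difference minus the excess Fe difference, and 107 of all 57258 probe sets (0.187%) passed it. The count of 25 is no result of its own. The named probe sets were chosen in part on the control difference, and the study's descriptions cover probe sets it found Fe-responsive on these arrays. No cause was tested. Values below are that difference of differences on the log2 scale.

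It was negative, with EPAGRI 108 lower under control Fe and near BR-IRGA 409 under excess Fe, in Fe uptake, chelator, distribution and regulation genes. It was -6.39 for YSL15, -6.16 for NAS1, -6.01 for IMA1, -5.95 for NAS2 and -5.38 for NAAT1. For TOM1 it was -4.21, for YSL2 -3.90, for NRAMP1 -3.88, for MIR -2.93, for IRO3 -1.85 and for YSL16 -1.42. Outside the Fe list it was -4.72 for LOC_Os11g15624, -3.72 for the oligopeptide transporter LOC_Os01g65110 and -3.62 for the kinase LOC_Os01g03370. For LOC_Os03g32490 it was -3.10, for LOC_Os11g05390 -2.75 and for the peroxidase LOC_Os01g22230 -2.42.

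It was positive in the vacuolar Fe transporter family, with 4.42 for LOC_Os04g45520, 3.72 and 4.25 for the 2 probe sets of VIT2 and 2.42 for LOC_Os04g59020. LOC_Os04g45510, the neighbour of LOC_Os04g45520, had 5.39 with EPAGRI 108 control replicate 1 and 4.54 without it. Further positive values were 3.34 for LOC_Os12g29400, 2.81 for the peroxidase LOC_Os07g34710 and 2.73 for the cytochrome P450 LOC_Os01g58960. Where a cultivar was at the level of no signal under control Fe (EPAGRI 108 in IMA1, TOM1, MIR, LOC_Os11g15624 and LOC_Os01g03370, BR-IRGA 409 in LOC_Os04g45510), the size of the fitted value has no lower anchor. With the replicate number within each cultivar as a block, LOC_Os01g58960 (adjusted p = 0.0923) and YSL16 (adjusted p = 0.0742) no longer passed the test. Without EPAGRI 108 control replicate 1 all 25 kept their sign and an adjusted p under 0.05.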

How the results depend on the processing

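No called gene among the named ones changed sign in the settings tried. SAMS, which was not called, did (0.02, and -0.04 with the EPAGRI 108 arrays exchanged). By the methods' t-test with adjusted p, 168 probe sets were higher and 167 lower in EPAGRI 108, against 346 and 292 with limma, and 19 of the 62 named probe sets missed the threshold. Among them were VIT2 on its brighter probe set, LOC_Os04g45520, LOC_Os04g59020 and MIR. MIR also lost its call with 16 added to the linear values. With 16 added to the linear values, 335 of 431 calls repeated under excess Fe, against 507 of 638. At 2-fold, 557 were higher and 540 lower, 804 of 1097 repeated, and 27 genes of the families were called, against 16. With the arrays labelled EPAGRI 108 excess Fe in place of control, 774 were higher and 57 family genes were called. A bound of 4-fold gave 82 all-or-none gaps with signal in EPAGRI 108 only and 67 with signal in BR-IRGA 409 only, against 44 and 42.

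Leaving out each control array in turn gave 321 to 371 higher and 279 to 311 lower calls, 501 to 518 repeats, 39 to 48 and 40 to 43 all-or-none gaps (EPAGRI 108 only and BR-IRGA 409 only) and 16 to 18 family genes. Without replicate 1 of both EPAGRI 108 groups, 326 were higher and 311 lower. Across the cultivars, control arrays of the same number had deviations that correlated at 0.27, 0.05 and 0.24, not all over 0.1, so the numbers were not taken to pair the cultivars. Within a cultivar, control and excess Fe arrays of the same number correlated at 0.45, 0.30 and 0.15 in EPAGRI 108 and at 0.49, 0.21 and 0.11 in BR-IRGA 409, and with that pairing as a block 40 of the 43 probe sets whose difference was gone under excess Fe kept an adjusted p under 0.05. The block over all groups kept 42. With the replicate number as a block, 349 were higher and 294 lower, 513 of 643 calls repeated, 44 and 42 gaps and 16 family genes were called, and all 62 named probe sets kept their side of the threshold. The other scaling moved the median of an array by at most 0.05 in log2.

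Limits are 3 arrays a cultivar, labels of the EPAGRI 108 arrays that run against the study's lists, and plants whose pooling is not stated. EPAGRI 108 control replicate 1 stood apart from its group, and excess Fe replicate 1 did in part. Signal over background limits the dim calls, since 23224 probe sets were under the level of no signal on all 6 control arrays and the lower cultivar was there on all its arrays in 201 higher and 148 lower calls. Whether a gap is a sequence variant under the probes was not tested.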
